A study of Mus musculus with 6 samples.

Results

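The DNA replication and mitosis genes are a set of 40 named genes whose products copy the chromosomes and then pull them apart. The set was taken by symbol from the 34866 genes of the deposited counts table, and all 40 symbols were found. It holds 16 replication genes, from the helicase subunit Mcm2 to the cyclin Ccne2, and 24 mitosis genes, from the proliferation marker Mki67 to the tubulin-binding protein gene Stmn1. Messenger RNA was sequenced from effector memory CD4+ T cells, which are helper T cells that have met antigen, sorted as live cells from mouse spleen. There were 3 libraries from wild-type mice (WT 1 to 3) and 3 from mice that lack Il1rn, the gene of the secreted antagonist of interleukin-1 (Il1rnKO 1 to 3). The sources used here do not give strain, sex, age, treatment or the structure of the knockout allele, and all 6 libraries share the tissue and the sort. Whether each library is a different mouse is not stated, so the spread behind every p-value is that between libraries and may be technical.

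A resting memory T cell keeps most of its division machinery switched off and turns it on in a fixed order after antigen contact. E2F transcription factors first raise the genes for licensing and copying DNA: the MCM subunits form the ring-shaped helicase that unwinds DNA, PCNA is the sliding clamp that holds polymerases on it, and ribonucleotide reductase, thymidylate synthase and thymidine kinase supply the building blocks. Later the genes for spindle, chromosome condensation and cytokinesis rise, among them the cyclin B genes with their kinase Cdk1. In resting cells these late genes are held down by the DREAM complex, which binds a short promoter element called CHR (cell cycle genes homology region), and the same element serves for activation in dividing cells, together with CCAAT boxes bound by NF-Y.

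The promoters of the set carried these elements at different rates in its 2 lists. The rule that chose the genes did not use sequence, but the elements were searched because they are known from such genes. The rates therefore describe the set and are no test. RefSeq promoter windows (GRCm38.p6, 250 bases before to 50 after the annotated start) were matched by symbol for 32 of the 40 genes, 13 of replication and 19 of mitosis. The E2F motif was searched as TTTCCCGC, TTTCGCGC, TTTGCCGC or TTTGGCGC on both strands. It was found in 5 of 13 replication genes (Mcm3, Mcm5, Mcm6, Mcm7 and Uhrf1) and in 1 of 19 mitosis genes (Cdk1), against 2.60% of the 27025 genes with a window and 4.64% of the 9902 of them that were tested for expression. The CHR motif was searched as TTTGAA or TTCGAA on both strands. It was found in 15 of 19 mitosis genes and in 2 of 13 replication genes (Mcm2 and Mcm7), against 21.7% of all genes with a window and 17.1% of those tested. CCAAT, on either strand, was found at least 2 times in 11 of 19 mitosis and 6 of 13 replication genes, against 13.3% of all genes with a window and 16.6% of those tested. Spellings of the E2F motif can overlap each other, and genes with several windows were counted once. These are matches of letters and not measured binding.

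**Figure D1:**
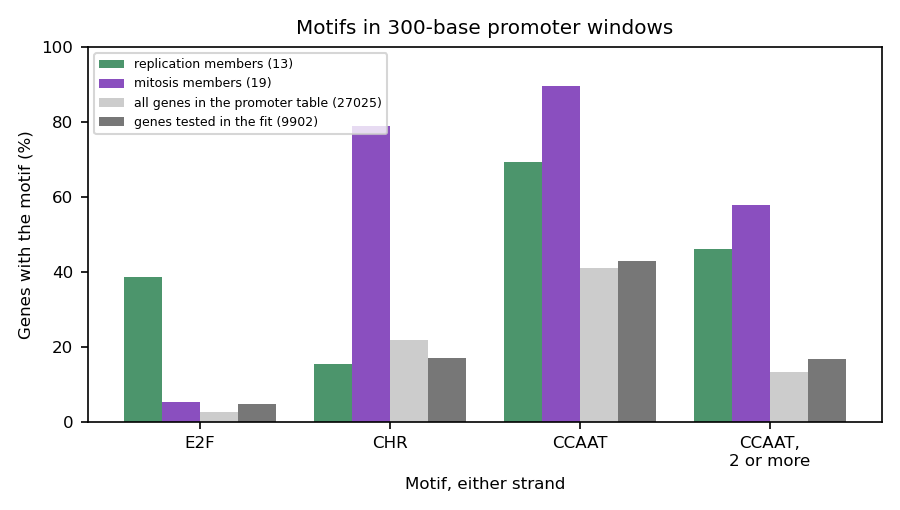
Share of genes (%) whose 300-base promoter window holds each motif on either strand, for the 13 replication genes, the 19 mitosis genes, all 27025 genes with a window and the 9902 tested for expression. The CHR bar is highest for the mitosis genes (78.9%) and the E2F bar for the replication genes (38.5%).

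Windows of 190 bases are printed for 6 genes that show the E2F type, the CHR type or both, from 160 bases before to 30 after the annotated start, 5′ to 3′ on the strand of the gene, with every motif match in capitals (E2F, CHR and CCAAT or its reverse ATTGG). The places are chr8:75109349-75109538 (plus strand) for Mcm5, chr1:128359676-128359865 (minus) for Mcm6, chr10:69352883-69353072 (minus) for Cdk1, chr7:135716350-135716539 (minus) for Mki67, chr9:70421525-70421714 (minus) for Ccnb2 and chr4:118437314-118437503 (minus) for Cdc20, all on GRCm38.p6.
Mcm5: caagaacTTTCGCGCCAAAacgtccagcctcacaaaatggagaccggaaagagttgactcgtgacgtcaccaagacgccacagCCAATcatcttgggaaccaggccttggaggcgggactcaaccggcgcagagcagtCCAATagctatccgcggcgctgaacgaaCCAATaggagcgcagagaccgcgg
Mcm6: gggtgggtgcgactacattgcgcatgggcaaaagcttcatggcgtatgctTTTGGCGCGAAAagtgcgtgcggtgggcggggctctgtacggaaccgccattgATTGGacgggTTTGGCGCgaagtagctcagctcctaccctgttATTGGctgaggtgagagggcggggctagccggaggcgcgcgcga
Cdk1: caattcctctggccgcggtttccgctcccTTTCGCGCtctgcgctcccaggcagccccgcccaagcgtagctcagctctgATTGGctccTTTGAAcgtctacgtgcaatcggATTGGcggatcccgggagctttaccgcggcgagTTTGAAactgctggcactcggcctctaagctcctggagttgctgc
Mki67: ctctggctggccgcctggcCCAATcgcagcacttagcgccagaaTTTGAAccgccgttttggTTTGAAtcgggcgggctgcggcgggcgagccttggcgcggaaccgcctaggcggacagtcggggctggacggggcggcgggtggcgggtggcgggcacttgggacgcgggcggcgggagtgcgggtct
Ccnb2: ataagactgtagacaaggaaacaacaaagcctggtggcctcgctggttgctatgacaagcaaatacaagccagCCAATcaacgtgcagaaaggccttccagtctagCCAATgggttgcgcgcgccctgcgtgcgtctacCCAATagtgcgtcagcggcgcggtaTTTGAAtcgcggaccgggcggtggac
Cdc20: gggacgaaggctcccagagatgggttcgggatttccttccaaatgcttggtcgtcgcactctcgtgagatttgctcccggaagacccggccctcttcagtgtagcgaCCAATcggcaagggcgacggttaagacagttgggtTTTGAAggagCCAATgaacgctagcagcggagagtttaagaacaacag

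In the Mcm5 window TTTCGCGC at -153, counted from the RefSeq start as 0, overlapped GCGCCAAA at -149, which is TTTGGCGC on the other strand. Mcm6 held TTTGGCGC at -110, overlapping GCGCGAAA (TTTCGCGC on the other strand) at -106, and a further TTTGGCGC at -47. For Mcm5 and Mcm6 the GENCODE start lies 60 and 41 bases downstream of the RefSeq start, and the end of the RefSeq window was found in no GENCODE transcript of the gene, so these positions hold for the RefSeq start alone. Cdk1, the mitotic kinase, had both types, with an E2F match at -131 and TTTGAA at -71 and -15. Mki67 had TTTGAA at -116 and -98, Cdc20 at -18 and Ccnb2 at 4. In Ccnb2, a mitotic cyclin, the CCAAT boxes at -87, -54 and -21 stood 33 bases apart each time.

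Replication genes spanned the range of levels and mitosis genes lay mostly low: 8 of the 16 replication genes and 23 of the 24 mitosis genes were under the median of the 12544 tested protein-coding genes. Levels between genes are compared as CPM per kilobase (CPM is the usual count scaled to the library total, here with TMM factors, and is divided by the length of all annotated exons). Of the 16 replication genes 8 had a higher mean level over the 6 libraries than any mitosis gene. A mean under 1 CPM per kilobase was found for 14 of the 24 mitosis genes and for 1 replication gene, E2f1.

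Pcna, the clamp, stood far above the rest. Its level was 156, 227 and 224 CPM per kilobase in WT 1, 2 and 3, against 136, 120 and 225 in Il1rnKO 1, 2 and 3. On average this placed it at or above 98.6% of those protein-coding genes. Within a library Pcna was 9.32 to 20.1 times the mean of the 6 MCM genes, lowest in Il1rnKO 2 and highest in WT 3.

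The 6 MCM genes, whose products occupy the helicase ring once each, were of one order of magnitude. Mcm4 was highest in every library, at 23.8, 21.9 and 18.5 CPM per kilobase in WT 1, 2 and 3, against 28.3, 26.6 and 21.9 in Il1rnKO 1, 2 and 3. Mcm3 followed with 14.6, 10.6 and 11.1 in wild type and 12.3, 11.6 and 13.6 in knockout, and Mcm6 with 13.3, 11.4 and 11.9 and then 10.5, 10.8 and 12.9 CPM per kilobase. The ranges of Mcm3 and Mcm6 overlapped. Mcm5 had 12.2, 11.0 and 9.92 in wild type and 10.3, 11.2 and 14.6 CPM per kilobase in knockout. Mcm7 had 9.98, 11.7 and 8.78 and then 9.26, 9.37 and 9.90 CPM per kilobase, and Mcm2 had 7.46, 8.51 and 6.68 and then 8.63, 7.91 and 8.14. Between the highest and the lowest of the 6 the level differed 2.57- to 3.36-fold within a library. With the longest transcript as the length, Mcm4 stayed first (23.5 CPM per kilobase on average), while Mcm2 moved from sixth place to the second (15.7), so the order below Mcm4 depends on the annotation.

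Gmnn, which encodes the licensing inhibitor geminin, had a mean of 8.15 CPM per kilobase over the 6 libraries, between Mcm7 (9.83) and Mcm2 (7.89). Below the MCM genes lay Rrm1, the large subunit of ribonucleotide reductase, with 5.01. Its partner Rrm2, the subunit that dividing cells make anew, had a mean of 2.17. Ccne1 and Ccne2, cyclins of the entry into replication, had 3.08 and 2.71, Tyms (thymidylate synthase) had 2.65, Uhrf1 (a guide of maintenance DNA methylation) 2.03 and Tk1 (thymidine kinase) 2.01 CPM per kilobase. E2f1, an activator of the replication genes, was lowest at 0.796.

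Among the mitosis genes Mki67 and Top2a, the gene of the topoisomerase that untangles sister chromosomes, were highest. Mki67 was at 6.83, 4.28 and 5.89 CPM per kilobase in WT 1, 2 and 3, against 4.93, 6.99 and 7.49 in Il1rnKO 1, 2 and 3. Top2a was at 5.30, 4.05 and 5.12 in wild type and 4.56, 6.09 and 6.61 CPM per kilobase in knockout. Both genes were lowest in WT 2 and highest in Il1rnKO 3, and the groups overlapped. Stmn1, whose product destabilizes microtubules, had 6.23, 3.77 and 4.51 and then 4.29, 4.03 and 6.03 CPM per kilobase. Prc1, which bundles the central spindle, had 2.68, 3.41 and 3.71 and then 3.56, 4.08 and 3.95 CPM per kilobase. With the longest transcript as the length, the mean of Top2a was 9.13, of Stmn1 8.72, of Prc1 8.04 and of Mki67 6.07 CPM per kilobase. The order of these genes thus depends on the annotation.

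The next were Cdc20, an activator of the anaphase-promoting complex, with a mean of 2.68 CPM per kilobase, the cytokinesis motor gene Kif20a with 1.79 and the spindle-pole kinase gene Aurka with 1.54. Means over the 6 libraries were 1.37 for Ccnb2, 1.31 for Hmmr (a spindle assembly factor) and 1.12 CPM per kilobase for Plk1, a mitotic kinase. Between 0.5 and 1 lay Cenpe (0.912), Kif11 (0.861), Kif23 (0.823), Birc5 (0.748), Ube2c (0.728), Cdk1 (0.718), Tpx2 (0.566) and Ccna2 (0.554 CPM per kilobase). The lowest were Nusap1 (0.474), Bub1b (0.366), Ccnb1 (0.351), Aurkb (0.310), Bub1 (0.165) and Cenpf (0.112 CPM per kilobase). Cenpf, a kinetochore gene, was at or above 2.10% of the tested protein-coding genes and Ccnb1 10.7%, against 51.0% for Mki67 and 47.7% for Top2a. In a bulk sample fewer dividing cells and less RNA per cell cannot be told apart.

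**Figure D2:**
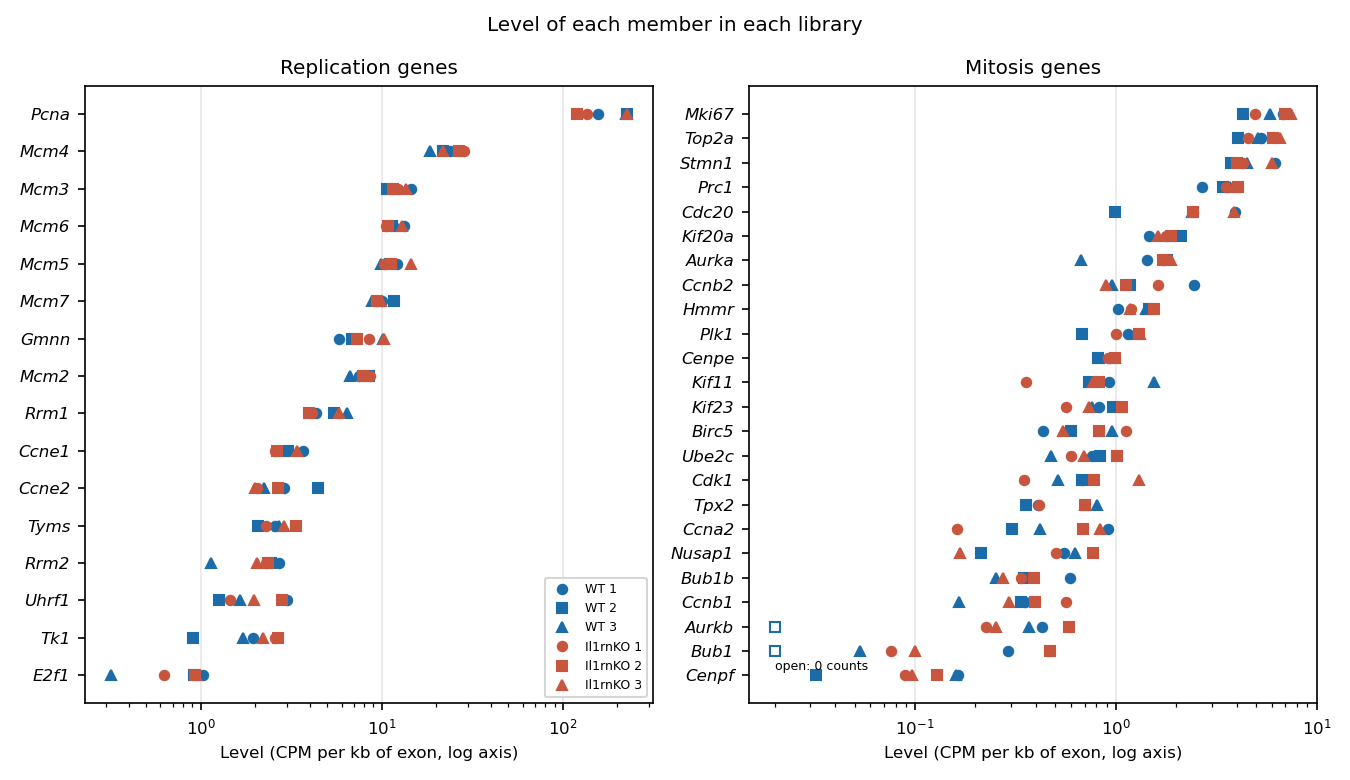
Level of each gene in each library in CPM per kilobase of exon on a log axis, ordered by mean, with wild-type libraries in blue, knockout libraries in red and open symbols for libraries with 0 counts. Pcna stands alone at 120 to 227, the MCM genes cluster between 6.68 and 28.3, and 14 of 24 mitosis genes average under 1.

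Several of these levels rest on reads that other genes could share. The deposited values had decimals in all 6 libraries for 10 of the 40 genes and in none for 17, Ccnb2 among the latter. The 10 were Rrm1, Tyms, Tk1, E2f1, Top2a, Kif11, Kif20a, Cenpf, Hmmr and Prc1. The sources used here name a library kit that keeps strand but not how the counting used it. Exons of 12 genes overlap those of another gene. The largest such overlaps with a well-counted gene on the opposite strand were those of Kif20a with Cdc23 (1271 bases, 4733 counts of Cdc23 over the 6 libraries), Prc1 with Rccd1 (911 bases, 4036 counts) and Ccne2 with Ints8 (609 bases, 6929 counts). For Ccnb2 the annotated pseudogene Ccnb2-ps had 70, 78 and 67 counts in WT 1, 2 and 3, against 53, 62 and 95 in Il1rnKO 1, 2 and 3, more than Ccnb2 itself (68, 29 and 19, then 45, 27 and 22). Ccna2 overlaps Exosc9 (510 bases, 2844 counts) and Tk1 overlaps Afmid (83 bases, 1547 counts), both on the opposite strand. Levels of Kif20a, Prc1, Ccne2, Ccna2 and Ccnb2 are therefore uncertain, and those of other overlapping genes, Tk1 among them, may be too.

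Cells from knockout and wild-type mice were compared next. The question was whether T cells from mice that lack the interleukin-1 antagonist express more or less of the division machinery. None of the 39 genes tested passed, where 0.0523% of all 13374 tested genes did (edgeR's quasi-likelihood test, Benjamini-Hochberg adjustment over all genes, threshold 0.05). Bub1, a spindle checkpoint kinase gene, had too few counts to be tested. The lowest adjusted p among the genes was 0.988, and 0 of them passed with DESeq2 or limma voom. At an unadjusted edgeR p under 0.05 there was 1 gene, Tk1, where 4.08% of all tested genes reached that level. That count was 0 without WT 2, without Il1rnKO 1, without Il1rnKO 2 or with the mitochondrial share as a covariate. It was 2 without WT 3 (Tk1 and Ccne2), 2 with the replicate number as a block (Tk1 and Mcm4), 3 with limma voom (Tk1, Mcm4 and Pcna) and 4 without Il1rnKO 3 (Tk1, Mcm4, Pcna and Rrm1). Ranges of the groups did not overlap for 1 gene, again Tk1, against 9.41% of all tested genes.

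Of the 16 replication genes 10 had positive log2 fold changes (knockout over wild type), with a median of 0.08, and of the 23 tested mitosis genes 16 had, with a median of 0.16. Over all tested genes 52.6% were positive and the median was 0.02. Without WT 3 the replication median was -0.06. The median of the mitosis genes lay between 0.013 and 0.256 with a library left out.

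Tk1, the salvage enzyme of thymidine, had the smallest p. It was at 10.1, 4.70 and 8.90 CPM in WT 1, 2 and 3, against 13.4, 14 and 11.5 CPM in Il1rnKO 1, 2 and 3. Every knockout library was above every wild-type library, and WT 2 was the lowest. Means were 7.90 ± 2.84 and 13.0 ± 1.28 CPM (SD, n = 3), and the fitted log2 fold change was 0.71 (SE 0.31, 95% interval 0.04 to 1.39, edgeR adjusted p = 0.988). It ranged from 0.45 without WT 2, the low library, to 0.97 with limma voom.

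For the other nucleotide enzymes the groups overlapped. Tyms was at 15.7, 12.6 and 16.4 CPM in wild type and 14, 20.6 and 17.6 CPM in knockout, a log2 fold change of 0.22 (95% interval -0.26 to 0.71). Rrm1 was at 47.6, 59.7 and 71.1 CPM in wild type and 45.2, 43.8 and 63.9 CPM in knockout, a log2 fold change of -0.22 (95% interval -0.67 to 0.23). Rrm2 had means of 5.84 ± 2.33 and 6.20 ± 0.439 CPM (SD, n = 3), with its lowest library, WT 3, at 3.17 CPM.

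The helicase was the part of the set with the narrowest intervals. Mcm4 was at 85.6, 78.5 and 66.3 CPM in WT 1, 2 and 3, against 102, 95.4 and 78.6 CPM in Il1rnKO 1, 2 and 3. Its highest libraries were Il1rnKO 1 and 2, while Il1rnKO 3 lay within the wild-type range, and the log2 fold change was 0.26 (95% interval -0.10 to 0.62). For Mcm2, Mcm3 and Mcm5 the log2 fold changes were 0.12, 0.04 and 0.12, and for Mcm6 and Mcm7 they were -0.10 each. Taken as folds, the 95% intervals of the 6 genes ran from 0.735 at the lowest (Mcm7) to 1.53 at the highest (Mcm4), so a 2-fold difference lay outside each of them. The 6 together summed to 81.3, 75.2 and 66.9 CPM per kilobase in wild type and 79.2, 77.4 and 81.0 in knockout, with WT 3 lowest.

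Gmnn, the brake on licensing, was at 8.46, 10.1 and 14.9 CPM in wild type and 12.4, 10.7 and 15.1 CPM in knockout, with WT 1 lowest and the groups overlapping (log2 fold change 0.20, 95% interval -0.40 to 0.80). E2f1 was at 3.24, 2.91 and 1.01 CPM in wild type and 1.99, 2.95 and 2.98 CPM in knockout. WT 3 stood lowest, and the interval of its log2 fold change was wide, from -1.12 to 1.40. Ccne1 was at 9.78, 8.11 and 8.36 CPM and then 6.86, 6.99 and 9.05 CPM, with Il1rnKO 3 inside the wild-type range (log2 fold change -0.20, 95% interval -0.80 to 0.40). Ccne2 was at 10.1, 15.5 and 7.82 CPM and then 7.13, 9.29 and 6.94 CPM, highest in WT 2 (log2 fold change -0.52, 95% interval -1.20 to 0.17, and -0.208 without WT 2). Uhrf1 had means of 8.41 ± 3.89 and 8.87 ± 2.92 CPM (SD, n = 3).

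Pcna was high in the libraries with much mitochondrial RNA. Its levels in CPM were 375, 544 and 537 in WT 1, 2 and 3, against 327, 289 and 539 in Il1rnKO 1, 2 and 3. The share of counts from mitochondrially encoded genes was 5.68, 7.32 and 8.92% for the wild-type libraries in the same order and 3.69, 3.44 and 8.34% for the knockout libraries. The 3 libraries with the highest share (WT 2, WT 3 and Il1rnKO 3) had the 3 highest Pcna levels, and Il1rnKO 2 was lowest in both. The log2 fold change of Pcna was -0.34 (SE 0.25, 95% interval -0.89 to 0.22), -0.66 without Il1rnKO 3 and -0.01 with the mitochondrial share as a covariate. Rrm1 had the same 3 libraries highest, and its log2 fold change was 0.05 with that covariate. Whether the mitochondrial share has a part in these values was not tested beyond that fit. Without Pcna the summed level of the other 15 replication genes was 103 ± 6.41 CPM per kilobase over the wild-type libraries and 108 ± 3.84 over the knockout ones (SD, n = 3).

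**Figure D3:**
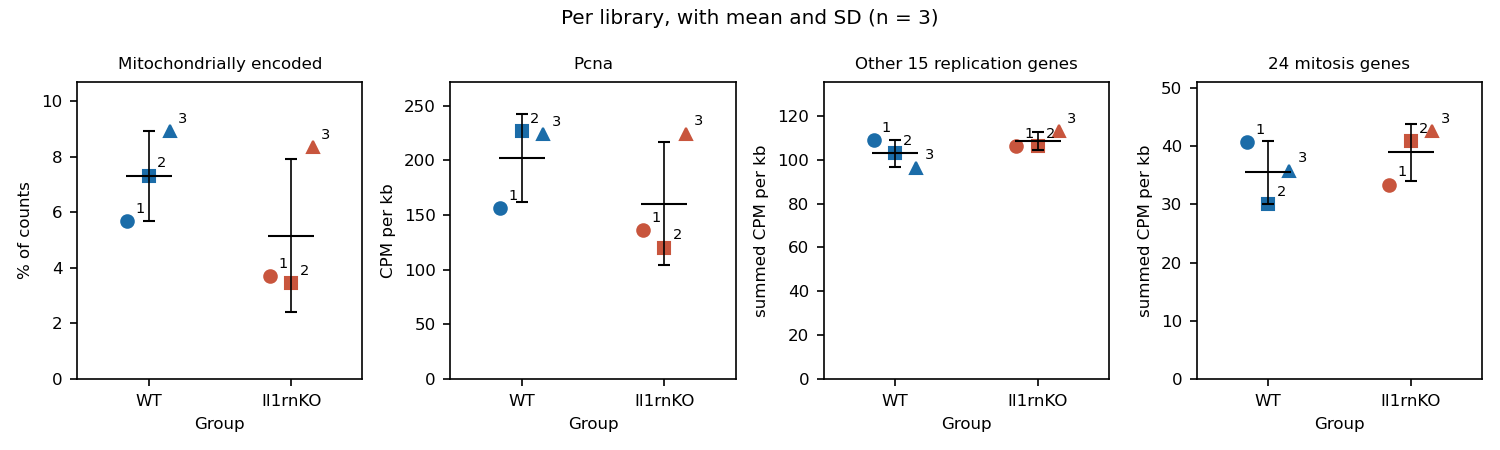
Share of counts from mitochondrially encoded genes (%), level of Pcna, and summed levels of the other 15 replication genes and of the 24 mitosis genes (CPM per kilobase), per library with the mean and SD of each group (n = 3); numbers beside the points are replicate numbers. Pcna is 224 to 227 in the 3 libraries with the highest mitochondrial share (7.32 to 8.92%) and 120 to 156 in the others, while the other replication genes sum to 96.4 to 113 in all 6 libraries.

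In the mitosis genes the intervals were wider and no group range stood apart. Mki67, a coat protein of mitotic chromosomes, was at 68.7, 43.1 and 59.3 CPM in WT 1, 2 and 3, against 49.6, 70.4 and 75.3 CPM in Il1rnKO 1, 2 and 3, a log2 fold change of 0.19 (95% interval -0.28 to 0.66). Top2a was at 47.7, 36.5 and 46.1 CPM and then 41.1, 54.9 and 59.6 CPM, a log2 fold change of 0.25 (95% interval -0.16 to 0.66). In both genes WT 2 and Il1rnKO 1 were the lowest libraries of their groups.

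Prc1 was at 22, 28.0 and 30.5 CPM in wild type and 29.2, 33.6 and 32.5 CPM in knockout, with WT 1 lowest (log2 fold change 0.24, 95% interval -0.15 to 0.63). Stmn1 was at 12.0, 7.24 and 8.67 CPM and then 8.24, 7.75 and 11.6 CPM, spread alike in both groups. Aurka was at 3.63, 4.58 and 1.70 CPM and then 4.37, 4.36 and 4.77 CPM, with WT 3 low and WT 2 within the knockout range (log2 fold change 0.44, 95% interval -0.56 to 1.44). Kif11, a motor that separates the spindle poles, had the smallest p of the mitosis genes. Its levels were 6.92, 5.51 and 11.5 CPM in wild type and 2.65, 6.15 and 5.76 CPM in knockout, with WT 3 highest and Il1rnKO 1 lowest (log2 fold change -0.72, SE 0.42, 95% interval -1.64 to 0.21, edgeR adjusted p = 0.988). Without WT 3 the log2 fold change was -0.361.

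The cyclins and their kinase were counted in few reads. Ccnb1 had 27, 23 and 9 counts in WT 1, 2 and 3, against 43, 26 and 20 in Il1rnKO 1, 2 and 3, which gave a log2 fold change of 0.54 (95% interval -0.92 to 2.01). Ccna2 was at 3.74, 1.24 and 1.70 CPM and then 0.663, 2.82 and 3.41 CPM, so that each group held a library above 3 and one under 1.3. Cdk1 was at 3.35, 3.34 and 2.55 CPM and then 1.71, 3.85 and 6.45 CPM, with the knockout libraries at both ends (log2 fold change 0.37, 95% interval -0.79 to 1.53). Plk1 was at 2.53, 1.48 and 2.79 CPM and then 2.21, 2.88 and 2.91 CPM, with WT 2 lowest (log2 fold change 0.24, 95% interval -0.89 to 1.37). Ccnb2 had means of 2.33 ± 1.22 and 1.86 ± 0.573 CPM (SD, n = 3).

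The remaining mitosis genes lay on both sides of 0. Positive log2 fold changes were 0.41 for Aurkb and 0.33 for Birc5, both of the chromosomal passenger complex, 0.26 for Cdc20, 0.21 for the spindle assembly factor gene Tpx2, 0.16 for the kinetochore motor gene Cenpe, 0.14 for the ubiquitin-conjugating enzyme gene Ube2c, 0.05 for the spindle gene Nusap1 and 0.01 for Hmmr. Negative ones were -0.26 for the checkpoint gene Bub1b, -0.18 for Cenpf, -0.11 for the cytokinesis motor gene Kif23, -0.04 for Kif20a and -0.02 for Stmn1. The widest 95% interval was that of Aurkb, from -2 to 2.83. Bub1 had 23, 0 and 3 counts in WT 1, 2 and 3, against 6, 32 and 7 in Il1rnKO 1, 2 and 3, with one library high in each group. Over all 24 genes the summed level was 40.7, 30 and 35.8 CPM per kilobase in WT 1, 2 and 3, against 33.4, 40.9 and 42.6 in Il1rnKO 1, 2 and 3, or 35.5 ± 5.39 and 39.0 ± 4.93 (SD, n = 3), with overlapping ranges.

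**Figure D4:**
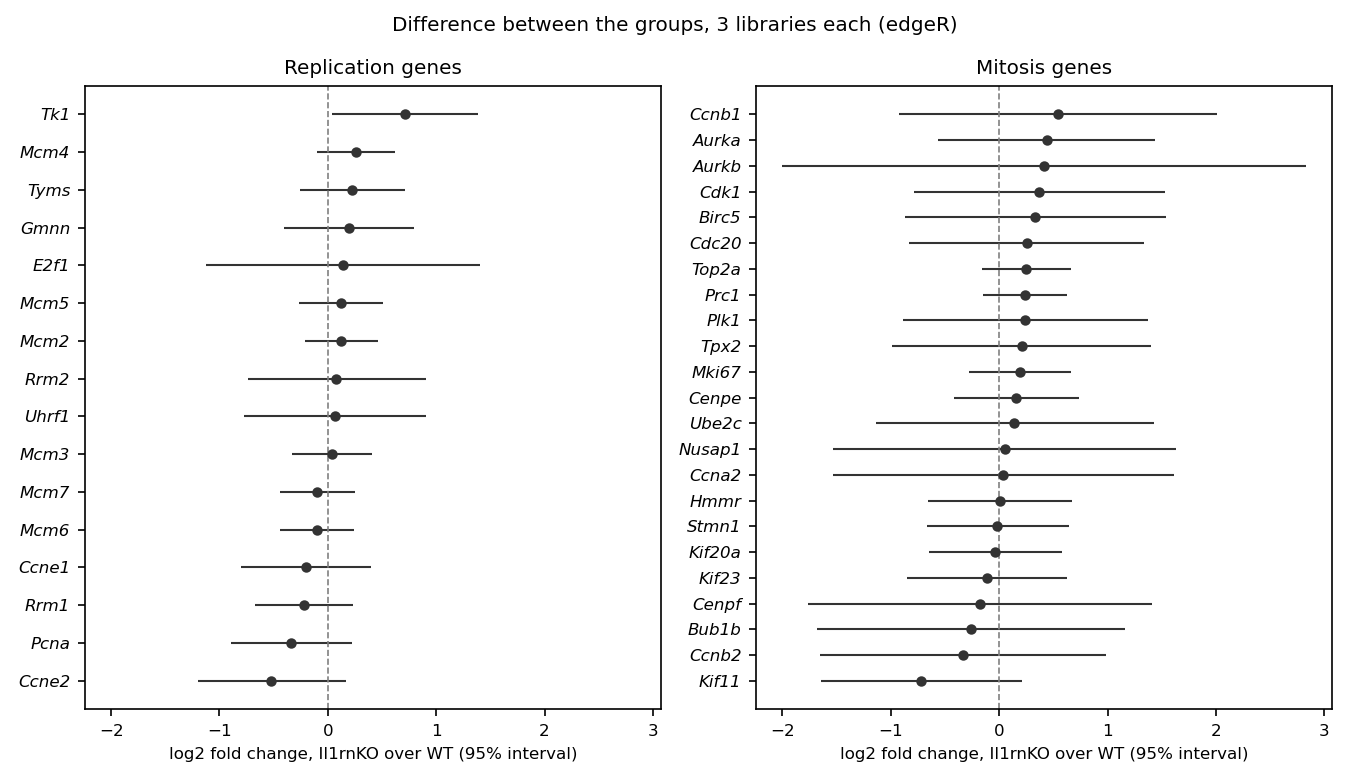
Log2 fold change, knockout over wild type, with its 95% interval for the 16 replication and 23 tested mitosis genes (edgeR, 3 libraries in each group). Intervals span 0 for every gene but Tk1 (0.04 to 1.39), whose adjusted p was 0.988, and are narrowest for the MCM genes.

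Libraries of one group differed from each other in the mitosis genes more than in the replication genes. The median coefficient of variation (SD over mean) was 38.0% among wild-type and 27.9% among knockout libraries for the mitosis genes, 18.7% and 16.4% for the replication genes, and 17.9% and 20.4% over all tested genes. Counting error alone would give a median of 14.4% for the mitosis genes, of which 12 had under 50 counts on average, and of 4.98% for the replication genes.

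The high and low libraries recurred from gene to gene. In Il1rnKO 2 21 of the 24 mitosis genes were above their own median over the 6 libraries and in WT 1 17 were, against 4 in Il1rnKO 1 and 7 in WT 2, against 49.0 to 51.9% of all tested genes in each of these 4 libraries. WT 2 was the lowest library for 10 mitosis genes, among them Mki67, Top2a, Cdc20, Aurkb, Bub1 and Cenpf, and Il1rnKO 2 for none. Of all tested genes 16.1% were lowest in WT 2 and 19.5% in Il1rnKO 2. These high and low libraries belonged to both groups. With plain library totals in place of TMM scaling the counts were 23, 18, 9 and 4 for Il1rnKO 2, WT 1, Il1rnKO 1 and WT 2, so that the 2 low libraries changed places, and 67.0% of all tested genes were then above their median in Il1rnKO 2. The genes share the libraries and their depth, so these counts describe the libraries and are no test.

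**Figure D5:**
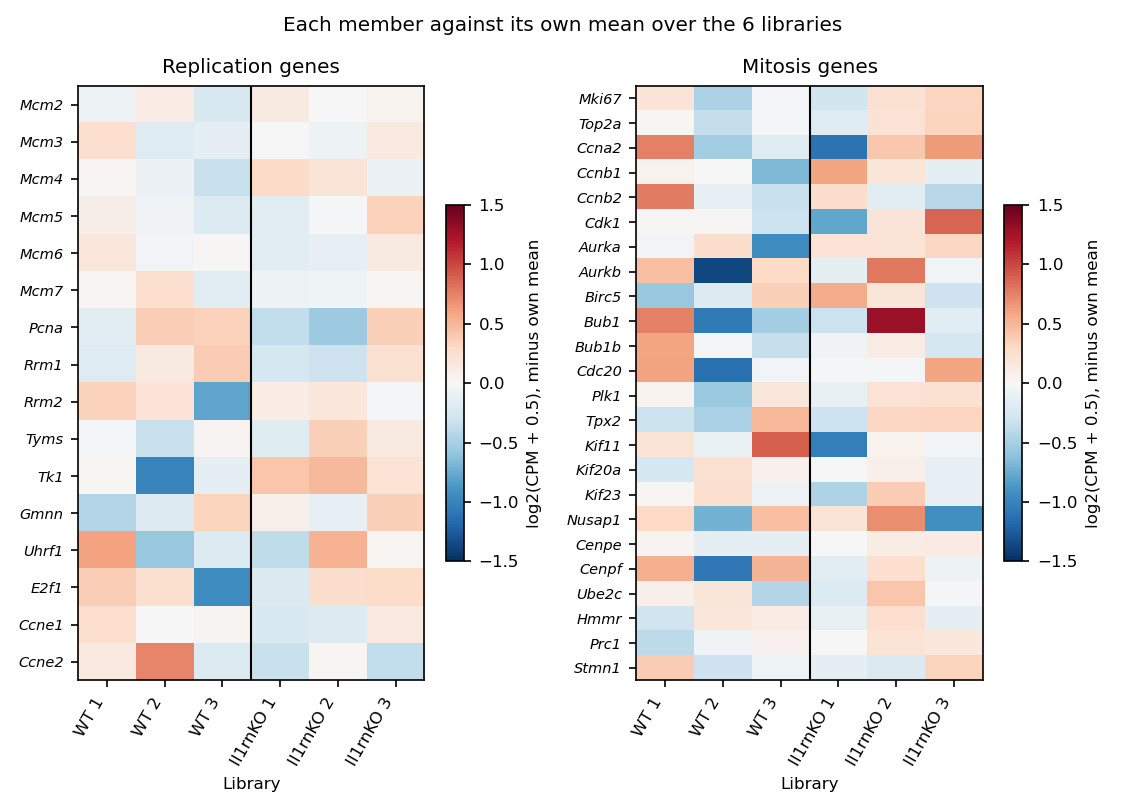
Difference of log2(CPM + 0.5) from the gene's own mean over the 6 libraries, genes in rows and libraries in columns, red above and blue below the mean, with a line between wild type and knockout. In the mitosis genes WT 2 is mostly blue and Il1rnKO 2 mostly red, and no block of colour follows the line between the groups.

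Replication and mitosis did not keep a fixed proportion. The summed level of the mitosis genes was 0.373, 0.292 and 0.371 of that of the 15 replication genes other than Pcna in WT 1, 2 and 3, against 0.315, 0.385 and 0.379 in Il1rnKO 1, 2 and 3. WT 2 and Il1rnKO 1 had the lowest values, and the groups overlapped.

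Other genes of the same machinery, from 8 lists chosen with earlier results of these data known, gave the same count of calls. Of 179 genes 171 were tested, 0 passed edgeR, 5 had an unadjusted p under 0.05 and 14 had ranges that did not overlap. The 5 and the 14 both include Kif18b, which passed the filter on low counts through the wild-type libraries alone. Over all tested genes the shares were 0.0523%, 4.08% and 9.41%, against 2.92% and 8.19% of these 171 for the unadjusted p and the ranges, both below those over all genes. Positive log2 fold changes were found for 8 of 21 origin licensing and helicase loading genes (median log2 fold change -0.17), 13 of 29 polymerase and fork genes (-0.08), 5 of 13 nucleotide supply genes (-0.03), 20 of 39 tested spindle, kinetochore and condensin genes (0.03), 6 of 9 cytokinesis genes (0.22), 13 of 25 tested genes of mitotic entry and exit (0.02), 9 of 14 tested genes of G1 cyclins, their kinases and E2F factors (0.19) and 6 of 21 tested inhibitors and pocket protein genes (-0.05).

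Cdk6, a kinase that pairs with cyclin D to start the cycle, was at 48.9, 43.6 and 35.1 CPM in wild type and 54.6, 67.3 and 53.6 CPM in knockout. Every knockout library was above every wild-type library, with a log2 fold change of 0.46 (95% interval 0.07 to 0.84, edgeR adjusted p = 0.988). Its partner cyclin gene Ccnd2 had means of 397 ± 50 and 488 ± 38.6 CPM (SD, n = 3) with overlapping ranges. Cdc25b, a phosphatase that activates Cdk1, was at 129, 142 and 122 CPM and then 163, 164 and 159 CPM, again without overlap (log2 fold change 0.31, 95% interval 0.01 to 0.61, edgeR adjusted p = 0.988). Ube2s, which extends ubiquitin chains in mitotic exit, was at 113, 132 and 123 CPM and then 105, 82 and 112 CPM. Its knockout libraries were all lower (log2 fold change -0.30, 95% interval -0.65 to 0.05).

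Kif18b, a motor that trims spindle microtubules, was at 0.824, 1.48 and 0.697 CPM in wild type and 0.0553, 0.320 and 0.0620 CPM in knockout. It had 15, 24 and 9 counts in wild type and 1, 5 and 1 in knockout, and it passed the filter on low counts through the wild-type libraries alone, so that no fold change is given (edgeR adjusted p = 0.988). Cdca8, a chromosomal passenger gene, had a log2 fold change of 1.22 (95% interval 0.08 to 2.35) with overlapping ranges. Plk4, which licenses centriole copying, had means of 14.2 ± 2.86 and 18.9 ± 0.452 CPM (SD, n = 3) without overlap, and Racgap1, of the central spindle, had a log2 fold change of 0.47. The kinase activator gene Dbf4 had -0.40 with knockout libraries all lower, and the origin recognition gene Orc4 -0.34. E2f5, a repressor-type E2F gene, had -0.60 (95% interval -1.16 to -0.04) and Tob1, an antiproliferative gene of resting T cells, -0.34, both with overlapping ranges. The maintenance methyltransferase gene Dnmt1 and the polymerase subunit gene Pold3 had 0.29 each, the nucleotide hydrolase gene Samhd1 0.20 and the folate enzyme gene Mthfd1 -0.26.

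Library totals were 14102183 to 17677217 counts, and 1 TMM-scaled CPM stood for 12.9 (WT 3) to 18.2 (WT 1) counts. Il1rn itself had 6, 10 and 0 counts in wild type and 1, 3 and 1 in knockout, too few to check the genotype labels. All 10 CD4 T cell markers were counted in every library, summing to 5222 to 5681 CPM in wild type and 5720 to 5798 in knockout. Markers of other spleen cells were also counted. The erythroid marker Klf1 had 0 counts in all 6 libraries, and the 10 erythroid markers summed to 3.62 to 6 CPM in wild type and 6.76 to 10.7 in knockout. A list of 10 neutrophil lineage markers summed to 0.0709 to 3.51 CPM in wild type and 29.7 to 95.1 in knockout. Of these Ngp was past the edgeR threshold. It had 0, 0 and 0 counts in WT 1, 2 and 3, against 145, 104 and 247 in Il1rnKO 1, 2 and 3. Ngp thus passed the filter on low counts through the knockout libraries alone, so its call is no support for a difference. In knockout 89.5 to 98.4% of the neutrophil sum came from Ngp, Camp, Ltf, S100a8 and S100a9, named after their values were seen. Of the genes of early precursors Ctsg had 0 counts in all libraries. Elane had 3, 0 and 0, Prtn3 17, 0 and 2 and Mpo 27, 6 and 2 in Il1rnKO 1, 2 and 3. The 8 B cell markers summed to 114 to 159 and 166 to 202 CPM, mostly from Ighm, and the 6 plasma cell markers to 95.4 to 124 and 105 to 116. The 9 macrophage and monocyte markers summed to 5.03 to 13.0 and 17.5 to 24.7 CPM, the 6 CD8 and NK markers to 15 to 18 and 15.3 to 23.4, and the 8 T cell activation markers to 1050 to 1420 and 911 to 1223. The neutrophil, macrophage, B cell and erythroid sums were each higher in all knockout libraries, and so was that of the CD4 T cell markers. These sums use plain library totals. On that scale the share of all tested genes above their own median also differed between libraries. It was 56.9, 38.6 and 35.9% in WT 1, 2 and 3, against 62.4, 67.0 and 39.2% in Il1rnKO 1, 2 and 3. The part of the other cells in the levels of the replication and mitosis genes was not tested.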

How the data were processed

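The authors deposited estimated counts (not scaled, many with decimals) for 34866 genes in 6 libraries. Reads were processed against GRCm38, per the submitters' processing notes; the sources used here give no aligner, counting program or strand setting. Columns were matched to samples by title, and 0 columns were left unmatched. The members and lists were chosen with earlier results of these data known.

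Counts were rounded to whole numbers. Symbols and exon lengths came from GENCODE M21 (34652 identifiers matched without version, 214 did not). The whole table was fitted in edgeR 4.0.16 (R 4.3.3): TMM normalization, filterByExpr (minimum count 10, minimum total 15), two-sided quasi-likelihood test, Benjamini-Hochberg adjustment over 13374 genes, threshold 0.05. Fold changes divide knockout by wild type and carry SE and 95% intervals from the fit. CPM values are TMM-scaled, except marker sums and the mitochondrial share, which use plain totals. The fits were tested on simulated counts. Not every marker gene is reported by name here.

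The text gives values per library for the 4 genes with the highest level per length and up to 6 with the smallest p in each of the 2 member lists, and for 16 genes fixed by name; from each other list it names the 2 with the smallest p. The 14 alternatives were RLE and upper-quartile factors, no filter, the replicate number as a block, a filter of 50 counts in 3 libraries, DESeq2 1.42.0, limma 3.58.1 voom with quality weights, the mitochondrial share as a covariate, and each library left out. The last 20 bases of 32 of the 35 promoter windows were found in a transcript of the same gene and strand.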

Additional observations from a re-analysis of the deposited data

How the results depend on the processing

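No replication gene and no mitosis gene passed in any of the 14 alternatives, in which 0 of 534 values passed. Over all genes, where the main count was 7, the calls numbered 58 with no filter, 22 with DESeq2, 14 with the mitochondrial share as a covariate, and 11 each with limma voom and with the replicate number as a block, and 3 to 10 with a library left out. With a library left out the median log2 fold change of the replication genes ran from -0.06 (without WT 3) to 0.121, and the ratio of the summed levels, knockout over wild type, from 0.768 to 0.949 for the replication genes and from 1.019 to 1.185 for the mitosis genes; the main ratios were 0.880 and 1.098.

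The sign of the log2 fold change was kept in all alternatives for 18 of the 39 tested genes and in 479 of 534 values. It turned with limma voom (-0.002 for Mcm5, -0.026 for E2f1, -0.549 for Ccna2, -0.293 for Cdk1, 0.413 for Cenpf, -0.016 for Ube2c, -0.023 for Hmmr), with the mitochondrial share as a covariate (0.046 for Rrm1, -0.121 for Rrm2, -0.10 for Uhrf1, -0.74 for Nusap1, -0.026 for Ube2c, -0.002 for Hmmr, 0.053 for Stmn1), with the replicate block (-0.052 for Nusap1, 0.033 for Cenpf), with RLE factors (-0.011 for Hmmr) and with DESeq2 (-0.011 for Hmmr). With a library left out the log2 fold changes that turned sign ran as follows: Aurkb -0.174 to 0.931, Bub1b -0.494 to 0.112, Ccna2 -0.37 to 0.611, Ccnb2 -0.619 to 0.15, Cdc20 -0.122 to 0.754, Cdk1 -0.159 to 0.715, Cenpf -0.63 to 0.099, E2f1 -0.225 to 0.384, Hmmr -0.176 to 0.099, Kif20a -0.209 to 0.087, Kif23 -0.415 to 0.053, Mcm3 -0.048 to 0.162, Mcm5 -0.043 to 0.201, Mcm7 -0.191 to 0.017, Nusap1 -0.491 to 0.451, Rrm2 -0.212 to 0.27, Stmn1 -0.222 to 0.177, Tpx2 -0.011 to 0.649, Ube2c -0.129 to 0.297, Uhrf1 -0.226 to 0.478. Among genes that kept their sign with a library left out, the ranges that moved over 1.5 times were Mcm2 0.041 to 0.217, Mcm4 0.153 to 0.354, Mcm6 -0.203 to -0.067, Pcna -0.66 to -0.188, Rrm1 -0.421 to -0.077, Tyms 0.064 to 0.333, Tk1 0.445 to 0.902, Gmnn 0.002 to 0.459, Ccne1 -0.342 to -0.143, Ccne2 -0.717 to -0.208, Mki67 0.021 to 0.33, Top2a 0.138 to 0.373, Ccnb1 0.242 to 0.739, Aurka 0.132 to 0.742, Birc5 0.027 to 0.682, Plk1 0.005 to 0.405, Kif11 -0.943 to -0.361, Prc1 0.084 to 0.342. The cause was not tested. The intervals of these genes include 0 in the main fit, except that of Tk1 (0.04 to 1.39).

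The replicate numbers are not said to pair libraries. Deviations of same-numbered libraries from their group means correlated at 0.11, 0.05 and 0.12 for numbers 1, 2 and 3. Every library correlated best with its own number in the other group. These values are small, and Il1rnKO 2 correlated at 0.04 with WT 1, so they cannot show whether libraries were paired. The mitosis genes had fewer counts, with a median of the mean count per gene of 49.4, against 483 for the replication genes. With the stricter filter 15 replication but 12 mitosis genes were fitted.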
